A study of Homo sapiens with 12 samples.

Results

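The genes described here build, crosslink and degrade the extracellular matrix (ECM). The list holds 50 genes chosen by name for their role, and 49 of them were found among the 29696 genes of the expression table. LOX is not analysed here. By role, the list holds 6 fibrillar collagens, 10 basement membrane genes, 6 other collagens, 7 matrix glycoproteins, 4 elastic fibre genes, 3 proteoglycans, 6 genes of collagen processing and crosslinking, 5 proteases and 3 protease inhibitors. A gene was tested when its mean over the 6 input libraries reached 0.5 FPKM (fragments normalised for transcript length and for library size), and 42 members did. The other 7, COL1A2, COL3A1, COL11A1, POSTN, MATN2, ELN and VCAN, stayed below that level.

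The data came from A375, an established human melanoma cell line, infected with lentivirus carrying an shRNA. In the shALKBH5 group, labelled ALKBH5 knockdown, the shRNA was directed against ALKBH5, an enzyme that removes the m6A mark from RNA. The shCtrl group, which is labelled wild type in the sample descriptions and called Scramble in the study, received a control shRNA, so that both groups were infected. The study's RNA-seq methods give collection of the cells 48 h after infection and its MeRIP-seq methods give no time, and the sources used here do not say which of its ALKBH5 hairpins was sequenced. Each group had 3 input libraries, which give the expression values, and 3 immunoprecipitation (IP) libraries. In MeRIP-seq, fragmented poly(A) RNA is pulled down with an m6A antibody, and the input is the RNA before the pull-down. The study states in general that experiments were done independently 3 times, but nothing in the labels or in its sequencing methods says whether these libraries came from separate cultures, so the p-values measure the spread between these libraries, which may be technical.

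The ECM is a network of collagen fibrils, basement membrane sheets, adhesive glycoproteins, elastic fibres and proteoglycans that surrounds cells and that cells bind through integrins and other receptors. Collagen chains are hydroxylated and folded in the endoplasmic reticulum, and lysyl oxidases crosslink the fibrils outside the cell. Matrix metalloproteinases (MMPs) cut the matrix, and tissue inhibitors of metalloproteinases (TIMPs) block them. Melanoma cells make part of this matrix themselves, and its remodelling is a known part of invasion.

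The knockdown and the identity of the cells were examined first. ALKBH5 was at 3.48 ± 0.41 FPKM (SD, n = 3) in shALKBH5 and at 18.2 ± 0.962 FPKM (SD, n = 3) in shCtrl cells, with no overlap (two-sided exact permutation p = 0.1, the lowest that 3 against 3 libraries can give). The melanocyte lineage factor SOX10 was at 181 and 184 FPKM, while the pigment genes TYR, DCT and TYRP1 were at or below 0.157 FPKM in both groups and PMEL was at 0.611 and 0.237 FPKM. The summed melanocyte lineage markers were at 268 to 271 FPKM in shALKBH5 and 217 to 227 FPKM in shCtrl libraries. Most of that difference was S100B, at 82.1 and 32.9 FPKM. Of the 5 lineage markers tested, S100B, S100A1 and MITF (1.26 and 0.777 FPKM, with overlap) were called higher, PAX3 was called lower (0.567 and 1.15 FPKM) and SOX10 was not called. Of 5 fibroblast markers only PDGFRB reached 1 FPKM, and the defining markers DCN and THY1 were at or below 0.291 FPKM. The summed fibroblast markers nevertheless ran from 3.29 to 3.49 FPKM in shALKBH5 and from 7.72 to 8.58 FPKM in shCtrl libraries, in the direction of many members below. Most of this sum was PDGFRB, at 2.73 and 7.25 FPKM. PDGFRA (0.242 and 0.422 FPKM) and THY1 (0.00456 and 0.0399 FPKM) were also lower without overlap in shALKBH5, FAP was at 0.1 and 0.155 FPKM with overlap, and DCN was the other way, at 0.291 and 0.187 FPKM without overlap. The part of these markers in the results was not tested. Of the markers of other cell types, KDR (3.76 and 2.16 FPKM, endothelial) and CD68 (40.4 and 16.2 FPKM, leukocyte) were above 1 FPKM and called higher. PECAM1, VWF and CDH5 were at or below 0.301 FPKM and TP63 below 1 FPKM. The keratinocyte marker KRT14 was at 0.369 and 0.961 FPKM, and was called lower without overlap. Read counts are not part of the files used here, so sequencing depth is unknown and the number of libraries limits the precision. Fewer cells of a kind and less RNA per cell cannot be told apart in these bulk samples.

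Most matrix genes that changed were lower after ALKBH5 knockdown. Of the 42 members tested, 31 (73.8%) had an adjusted p under 0.05 in limma, beside 61% of all 12985 genes tested. Lower expression was called for 24 members (57.1%), beside 26.2% of all genes, and higher expression for 7 (16.7%), beside 34.7%. The median log2 fold change (shALKBH5 minus shCtrl, on log2(FPKM + 0.1), given with its standard error, SE, for single genes) was -0.21 over the tested members and 0.09 over all tested genes. With a log2 fold change of at least 1 as well, 6 members were lower and 2 higher, or 14.3% and 4.76% of those tested, beside 6.29% and 5.41% of all genes and 11.7% in either direction. The groups did not overlap for 32 members, 25 lower and 7 higher, where 67.0% of all genes did not overlap, 29.0% lower and 38.0% higher. Since most of the genes tested were called, the size of each change is given with its call. Counts within each role class below stand against these shares of all genes.

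**Figure D1:**
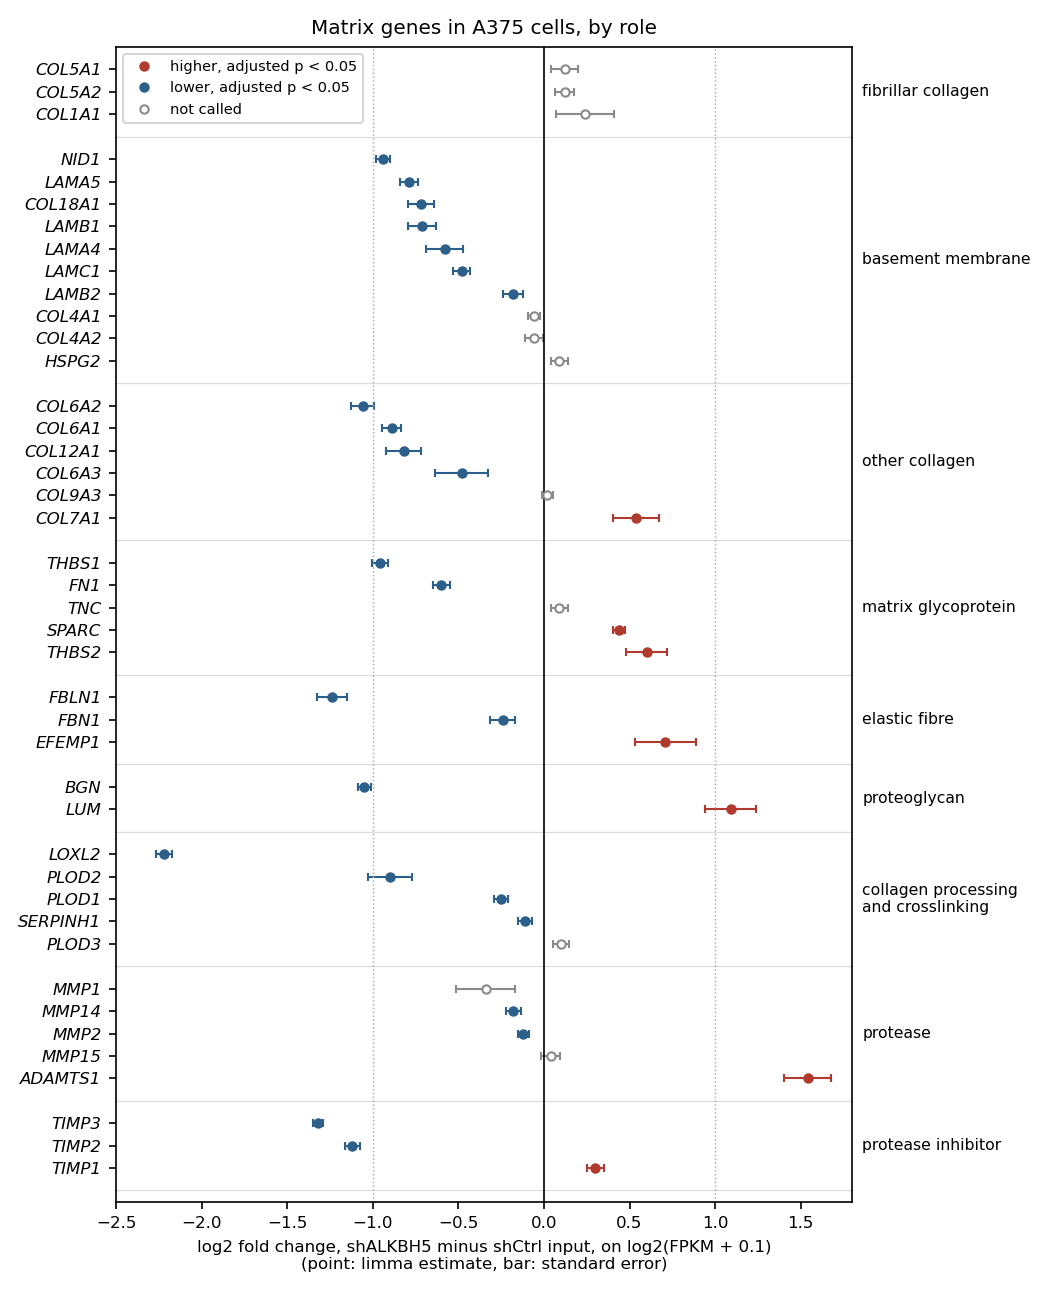
Log2 fold change of the 42 tested matrix genes between shALKBH5 and shCtrl input libraries (3 per group), grouped by role, with the limma estimate as a point and its standard error as a bar. Filled points passed an adjusted p of 0.05, the dotted lines mark a change of 1 in either direction, and LOXL2 at -2.22 and ADAMTS1 at 1.54 are the ends of the range.

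The summed level of the members fell with these changes. The 49 listed members added up to 2620 to 2674 FPKM in the shALKBH5 libraries and to 3118 to 3138 FPKM in the shCtrl libraries, or 1.17 to 1.20% and 1.42 to 1.47% of all FPKM. A few genes made up most of this sum. SPARC alone held 31.2 to 32.2% of it in shALKBH5 and 19.2 to 20.3% in shCtrl libraries, while TIMP3 held 9.08 to 9.25% and 19.1 to 19.7%. The matrix transcripts of the knockdown cells were thus richer in SPARC and poorer in TIMP3, with no overlap between the groups in either share.

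Of the 6 listed fibrillar collagens, the rope-forming collagens of connective tissue, 3 reached the level tested and none of these was called. COL5A2, a chain of the type V collagen that helps set fibril diameter, was the only abundant one, with 95.4, 93.3 and 89.7 FPKM in shALKBH5 and 79.1, 89.9 and 86.6 FPKM in shCtrl replicates 1, 2 and 3. Its groups overlapped, and the log2 fold change of 0.12 (SE 0.054) had an adjusted p of 0.0804. COL5A1 was at 3.15 ± 0.252 and 2.90 ± 0.0785 FPKM (SD, n = 3) and COL1A1 at 0.552 ± 0.0715 and 0.451 ± 0.0219 FPKM (SD, n = 3), neither called. The classic type I and type III chains COL1A2 and COL3A1 lay at or below 0.0581 FPKM in every library. COL1A2 was from 0.0061 to 0.0237 FPKM in shALKBH5 and from 0.0357 to 0.0581 FPKM in shCtrl libraries, and with the filter on low genes removed its log2 fold change was -0.37 (adjusted p = 0.05505). COL1A2 overlaps AC002074 on the other strand, at a mean of 0.0547 FPKM. COL11A1 was low and separate between the groups the other way, from 0.0891 to 0.109 FPKM in shALKBH5 and from 0.0213 to 0.0322 FPKM in shCtrl libraries, with a log2 fold change of 0.67 without the filter (adjusted p = 0.006495). Outside the list, the fibrillar collagens COL11A2 and COL27A1 rose, by 0.67 (adjusted p = 0.01028) from 0.518 to 0.876 FPKM and by 0.50 (adjusted p = 0.001437) from 2.08 to 3.00 FPKM.

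Most basement membrane members fell, while the type IV collagen genes COL4A1 and COL4A2 did not pass the test. Of 10 members tested, 7 were lower, none was higher and 3 were not called, with a median log2 fold change of -0.53. Over all genes tested, 26.2% were lower and 34.7% higher. NID1 encodes nidogen, which links the laminin and type IV collagen networks. It had 22.7, 22.3 and 21.9 FPKM in shALKBH5 and 41.0, 44.1 and 43.7 FPKM in shCtrl replicates. Every shALKBH5 value was below every shCtrl value, and the log2 fold change was -0.94 (SE 0.0431, adjusted p = 2.916e-06).

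The laminins are cross-shaped trimers of an alpha, a beta and a gamma chain, and each of the 5 chains among the members was lower. The alpha chains LAMA5 and LAMA4 fell by 0.79 and 0.58 on the log2 scale, the beta chain LAMB1 by 0.71 and the gamma chain LAMC1 by 0.48. LAMB2, the other beta chain, fell only by 0.18 (adjusted p = 0.02871), and its call was lost under 6 of 14 alternatives. The ratio of LAMB1 to LAMB2 within a library therefore moved, from between 1.91 and 2.48 in shCtrl to between 1.45 and 1.56 in shALKBH5 libraries. LAMC1 was the most abundant chain, at 105 ± 2.04 FPKM in shALKBH5 and 146 ± 8.79 FPKM in shCtrl cells (SD, n = 3). LAMA5 overlaps ADRM1, a gene on the other strand at a mean of 71.6 FPKM, and LAMB1 overlaps DLD at 6.57 FPKM. The library kit keeps strand, but how the counting used it is not given in the sources used here.

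COL4A1 and COL4A2 encode chains of type IV collagen, the sheet-forming collagen of the basement membrane. COL4A1 had 44.7, 43.9 and 44.8 FPKM in shALKBH5 and 45.7, 47.6 and 46.1 FPKM in shCtrl replicates. COL4A2 had 46.4, 44.4 and 48.3 FPKM against 51.4, 47.0 and 47.0 FPKM. Both had a log2 fold change of -0.06 and neither was called, with approximate 95% intervals of -0.13 to 0.00 and -0.17 to 0.04. These intervals take a normal approximation and are narrower than those the limma test would give. COL4A1 passed the threshold when libraries were rescaled by their median ratio, with a change of -0.14 (adjusted p = 0.02528), or to equal FPKM sums, with -0.11 (adjusted p = 0.0448). COL4A5, a type IV chain outside the list, rose by 0.39 (adjusted p = 0.01641), from 1.26 to 1.69 FPKM without overlap. HSPG2, the heparan sulfate proteoglycan perlecan, was at 12.9 ± 0.5 and 12.2 ± 0.4 FPKM (SD, n = 3) and was not called, while COL18A1, whose C-terminal piece is endostatin, fell by 0.72 (adjusted p = 0.0001603). COL18A1 overlaps SLC19A1 on the other strand, which was at a mean of 2.03 FPKM beside 3.58 FPKM for COL18A1 itself.

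COL4A1 and COL4A2 lie head to head on chromosome 13 and in RefSeq start from opposite strands of 1 short region. In the annotation of the files the 2 genes overlap on opposite strands, since COL4A2 begins at 110305812 and COL4A1 reaches to 110307157, and the part of this overlap in their levels was not tested. The ratio of COL4A2 to COL4A1 ran from 1.01 to 1.08 in shALKBH5 and from 0.987 to 1.12 in shCtrl libraries. In RefSeq (GRCh38.p14) the starts lie on either side of a stretch of 126 bases, chr13:110307158-110307283, with 80.2% G and C. It is shown because both genes of the pair start from it, on the strand of COL4A2, with the GC box GGGCGG in capitals.

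COL4A1-COL4A2 stretch: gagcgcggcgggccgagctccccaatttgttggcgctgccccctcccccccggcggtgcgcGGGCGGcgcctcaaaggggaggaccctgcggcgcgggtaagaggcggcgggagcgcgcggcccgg

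Among the other collagens, type VI fell across the 3 chains listed. Type VI collagen forms beaded filaments at the cell surface from the products of COL6A1, COL6A2 and COL6A3. COL6A2 had 11.7, 10.8 and 12.7 FPKM in shALKBH5 and 25.5, 23.9 and 24.5 FPKM in shCtrl replicates, without overlap, for a log2 fold change of -1.06 (SE 0.0655, adjusted p = 1.058e-05). COL6A1 was at 15.9 ± 0.962 and 29.5 ± 0.924 FPKM (SD, n = 3), a change of -0.89. COL6A3 was scarce in these cells, at 0.474 ± 0.0432 and 0.698 ± 0.0512 FPKM (SD, n = 3), and its change of -0.48 (adjusted p = 0.0299) was -0.20 with a pseudocount of 1 and lost its call under 6 of the 13 alternatives that tested it. The chains were thus far from equal in level, and the ratio of COL6A2 to COL6A1 moved from 0.809 to 0.856 in shCtrl to 0.728 to 0.759 in shALKBH5 libraries.

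COL12A1, a collagen that associates with fibrils, fell by 0.82 (adjusted p = 0.0003279), from 7.78 ± 1.03 to 4.35 ± 0.318 FPKM (SD, n = 3). COL7A1, which forms the anchoring fibrils under the epidermis, was the exception, rising by 0.54 (adjusted p = 0.01007), or 0.25 with a pseudocount of 1, at under 1 FPKM in every library. COL9A3, a cartilage collagen chain that these cells expressed strongly, was at 54.6 ± 0.806 and 54.0 ± 0.571 FPKM (SD, n = 3). Its log2 fold change of 0.02 was not called and turned to -0.06 after rescaling by the median ratio.

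The matrix glycoproteins went both ways, with 2 members lower, 2 higher and 1 not called of 5 tested. Over all genes tested, 26.2% were lower and 34.7% higher. THBS1 encodes thrombospondin 1, an adhesive protein that activates latent TGF-beta and inhibits angiogenesis. It had 77.5, 79.9 and 72.2 FPKM in shALKBH5 and 145, 152 and 151 FPKM in shCtrl replicates, a log2 fold change of -0.96 (SE 0.0462, adjusted p = 3.499e-06). Its relative THBS2 moved the other way at a much lower level, by 0.60 (adjusted p = 0.003544), from 1.38 ± 0.178 to 2.15 ± 0.203 FPKM (SD, n = 3). Fibronectin, the product of FN1, fell by 0.60 (adjusted p = 3.944e-05), from 27.5 ± 0.26 to 18.1 ± 0.965 FPKM (SD, n = 3).

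SPARC, a collagen-binding protein known from invasive melanoma, was the most abundant member. It had 828, 844 and 835 FPKM in shALKBH5 and 599, 617 and 634 FPKM in shCtrl replicates. All shALKBH5 values were higher, by 0.44 on the log2 scale (SE 0.0344, adjusted p = 3.353e-05). Tenascin C, encoded by TNC, had 248, 239 and 265 FPKM against 233, 244 and 230 FPKM. The groups overlapped, and the change of 0.09 (adjusted p = 0.1509) was not called.

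POSTN (periostin) and MATN2 (matrilin 2) stayed below the level tested. POSTN ran from 0.174 to 0.294 FPKM in shALKBH5 and from 0.0404 to 0.061 FPKM in shCtrl libraries, and MATN2 from 0.0449 to 0.138 FPKM and from 0.354 to 0.513 FPKM. Neither overlapped between groups, in opposite directions. With the filter removed, the log2 fold change was 1.11 for POSTN (adjusted p = 0.007761) and -1.55 for MATN2 (adjusted p = 0.006633). MATN2 overlaps RPL30 on the other strand, which was at a mean of 194 FPKM.

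**Figure D2:**
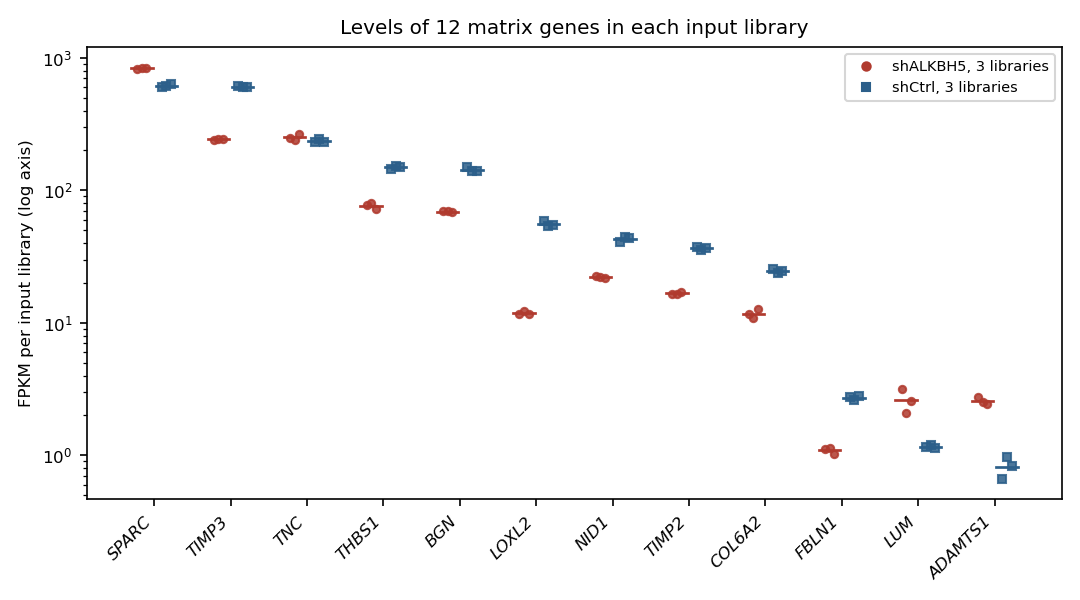
FPKM of 12 matrix genes in each of the 3 shALKBH5 (circles) and 3 shCtrl (squares) input libraries on a log axis, with the group mean as a line. The genes are the 8 with a called log2 change of at least 1, the 3 most abundant and the next largest changes, and only the 2 groups of TNC overlap.

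In the elastic fibre class the 3 tested members were all called, 2 lower and 1 higher, beside 26.2% and 34.7% of all genes tested. FBLN1 encodes fibulin 1, a calcium-binding protein of elastic fibres and basement membranes. It had 1.12, 1.14 and 1.02 FPKM in shALKBH5 and 2.76, 2.61 and 2.82 FPKM in shCtrl replicates, without overlap, a log2 fold change of -1.24 (SE 0.0876, adjusted p = 2.002e-05). At this low level the pseudocount matters, and with a pseudocount of 1 the change was -0.83. FBN1, the microfibril protein fibrillin 1, fell by only 0.24 (adjusted p = 0.0249), a call lost under 6 of 14 alternatives. EFEMP1, or fibulin 3, rose by 0.71 (adjusted p = 0.01001), or 0.30 with a pseudocount of 1, and was under 1 FPKM in every library, and ELN (elastin) was at or below 0.0619 FPKM, beside 0.762 FPKM for the overlapping antisense gene ELN-AS1.

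The small leucine-rich proteoglycans BGN and LUM moved in opposite directions. BGN encodes biglycan, which binds collagen and TGF-beta. It had 69.3, 69.2 and 68.8 FPKM in shALKBH5 and 149, 140 and 139 FPKM in shCtrl replicates, a log2 fold change of -1.05 (SE 0.0386, adjusted p = 1.16e-06). LUM encodes lumican, a regulator of collagen fibril assembly. It had 3.19, 2.09 and 2.55 FPKM in shALKBH5 and 1.15, 1.19 and 1.13 FPKM in shCtrl replicates, a log2 fold change of 1.09 (SE 0.148, adjusted p = 0.0005152). The groups of LUM did not overlap, but its shALKBH5 libraries were spread, and without replicate 1 the change was 0.94. VCAN (versican) was below the level tested, at 0.452 to 0.587 FPKM in shALKBH5 and 0.274 to 0.336 FPKM in shCtrl libraries.

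Collagen processing held the largest fall among the 42 tested members on the log2(FPKM + 0.1) scale. LOXL2 encodes a lysyl oxidase that crosslinks collagen and is known to stiffen tumour matrix. It had 11.7, 12.2 and 11.6 FPKM in shALKBH5 and 58.7, 53.9 and 54.4 FPKM in shCtrl replicates, so that shCtrl cells held 4.70 times the level of shALKBH5 cells. The log2 fold change was -2.22 (SE 0.0486, adjusted p = 2.258e-07) and lay between -2.30 and -2.14 under the 14 alternatives. LOXL2 overlaps ENTPD4 on the same strand, a gene at a mean of 3.85 FPKM.

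The hydroxylases and the chaperone changed less. PLOD2, the lysyl hydroxylase of the collagen telopeptides, fell by 0.90 (adjusted p = 0.0006731), from 4.08 ± 0.588 to 2.14 ± 0.268 FPKM (SD, n = 3). PLOD1, a lysyl hydroxylase of the triple helix, fell by 0.25 (adjusted p = 0.001461), and PLOD3, which overlaps ZNHIT1 on the other strand at 20.2 FPKM, had a change of 0.10 that was not called. SERPINH1, the collagen chaperone HSP47, was at 48.8 ± 1.61 and 52.8 ± 1.36 FPKM (SD, n = 3), and its call at -0.11 (adjusted p = 0.04648), or -0.19 after rescaling by the median ratio, was lost under 9 of 14 alternatives.

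Among the 5 proteases, 2 were lower, 1 was higher and 2 were not called. Of all genes tested, 26.2% were lower and 34.7% higher. MMP2, a gelatinase that degrades basement membrane collagen, had 214, 213 and 217 FPKM in shALKBH5 and 240, 228 and 234 FPKM in shCtrl replicates. Without overlap, the difference was small, at -0.12 (adjusted p = 0.01458), or -0.20 after rescaling by the median ratio, and the call was lost under 4 of 14 alternatives. MMP14, the membrane-bound protease that activates MMP2, fell by 0.18 (adjusted p = 0.00866), from 38.1 ± 1.54 to 33.6 ± 0.803 FPKM (SD, n = 3). The interstitial collagenase MMP1 and the membrane-type MMP15 were not called, with changes of -0.34 and 0.04, and that of MMP15 turned to -0.04 after rescaling by the median ratio.

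ADAMTS1, a protease that cleaves aggrecan and versican, had the largest rise among the 42 tested members on the same scale. It had 2.74, 2.51 and 2.45 FPKM in shALKBH5 and 0.666, 0.973 and 0.831 FPKM in shCtrl replicates. The groups did not overlap, and the log2 fold change was 1.54 (SE 0.139, adjusted p = 6.439e-05), or 0.97 with a pseudocount of 1.

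TIMP2 and TIMP3 fell while TIMP1 rose. TIMP3, the inhibitor that stays bound to the matrix, had 241, 242 and 243 FPKM in shALKBH5 and 614, 599 and 600 FPKM in shCtrl replicates. Its log2 fold change was -1.32 (SE 0.0301, adjusted p = 2.396e-07), between -1.40 and -1.31 under the alternatives. TIMP2, which inhibits MMP2 and also takes part in its activation by MMP14, had 16.6, 16.4 and 17.2 FPKM against 37.6, 35.3 and 36.5 FPKM, a change of -1.12 (SE 0.043, adjusted p = 1.403e-06). TIMP1, a secreted inhibitor of many MMPs, had 173, 168 and 186 FPKM against 150, 140 and 138 FPKM, a change of 0.30 (SE 0.0507, adjusted p = 0.001599). For none of the 3 inhibitors did the groups overlap, where 67.0% of all genes tested did not overlap.

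Ratios within a library do not depend on how libraries are scaled to each other. TIMP3 stood to MMP2 at 2.56 to 2.63 in shCtrl and at 1.12 to 1.14 in shALKBH5 libraries, and TIMP2 to MMP14 at 0.927 to 0.998 and at 0.496 to 0.501. Within the inhibitors, the ratio of TIMP3 to TIMP1 went from between 4.11 and 4.33 to between 1.31 and 1.44. The 3 inhibitors together summed to 774 to 801 FPKM in shCtrl and to 427 to 446 FPKM in shALKBH5 libraries. These are transcript levels, and no protein or activity was measured.

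**Figure D3:**
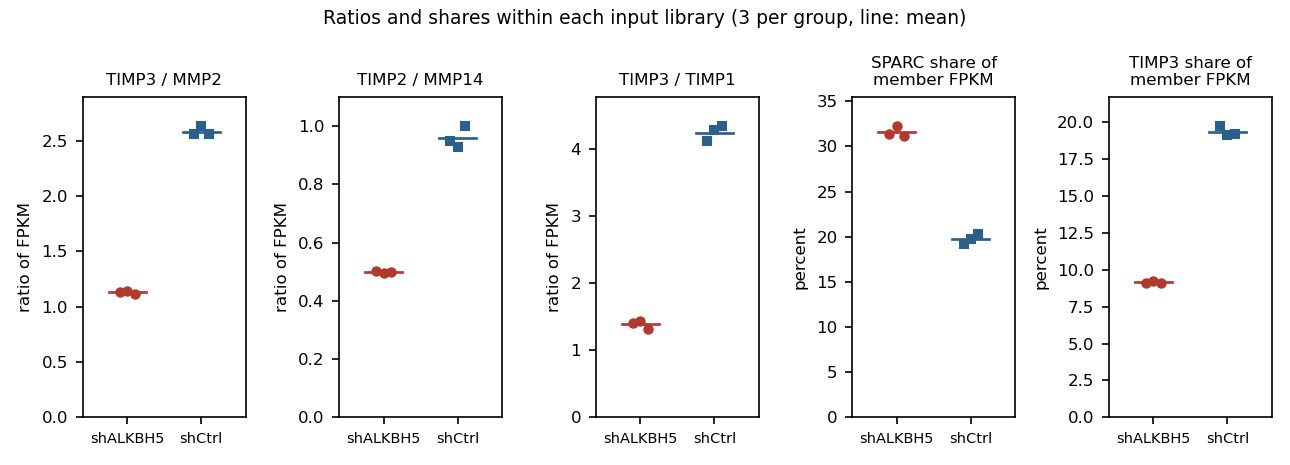
Ratios of FPKM between inhibitors and proteases, and the shares of SPARC and TIMP3 in the summed FPKM of the members, in each input library, with points for the 3 libraries of each group and a line for their mean. TIMP3 over MMP2 lies at 1.12 to 1.14 in shALKBH5 and at 2.56 to 2.63 in shCtrl libraries, and in no panel do the groups overlap.

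Promoters were available from RefSeq (GRCh38.p14) for 34 of the 49 members, as windows of 250 bases before the start. Of the 6 members that fell by at least 1, COL6A2, FBLN1, BGN and TIMP3 have such a window. They are printed so that the start regions of the strongest falls can be compared, on the strand of the gene, with GC boxes (GGGCGG or its complement CCGCCC) and TATA boxes (TATAAA, either strand) in capitals.

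TIMP3, chr22:32801455-32801704: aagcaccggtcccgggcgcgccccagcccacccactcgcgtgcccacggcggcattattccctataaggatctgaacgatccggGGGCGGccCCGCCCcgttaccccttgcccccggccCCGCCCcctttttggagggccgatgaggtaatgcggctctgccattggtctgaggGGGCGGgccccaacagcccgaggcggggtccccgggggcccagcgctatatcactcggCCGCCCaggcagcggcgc
BGN, chrX:153494730-153494979: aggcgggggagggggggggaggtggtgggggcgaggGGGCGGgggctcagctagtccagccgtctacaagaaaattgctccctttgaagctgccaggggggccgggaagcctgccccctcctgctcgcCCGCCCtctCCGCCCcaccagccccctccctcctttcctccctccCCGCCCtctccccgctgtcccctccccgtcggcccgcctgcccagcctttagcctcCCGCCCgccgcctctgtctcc
COL6A2, chr21:46097862-46098111: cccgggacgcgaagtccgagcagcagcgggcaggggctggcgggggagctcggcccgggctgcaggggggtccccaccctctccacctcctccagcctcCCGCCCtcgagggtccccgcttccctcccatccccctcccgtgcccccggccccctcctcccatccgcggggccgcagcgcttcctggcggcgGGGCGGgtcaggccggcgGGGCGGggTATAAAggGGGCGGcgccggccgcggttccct
FBLN1, chr22:45502633-45502882: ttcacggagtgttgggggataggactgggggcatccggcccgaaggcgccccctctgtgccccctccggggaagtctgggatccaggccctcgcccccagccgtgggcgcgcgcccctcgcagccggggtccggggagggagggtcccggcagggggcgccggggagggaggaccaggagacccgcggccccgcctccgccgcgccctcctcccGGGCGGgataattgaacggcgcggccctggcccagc

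TIMP3 and BGN each hold 5 GC boxes, COL6A2 holds 4 with 1 TATA box, and FBLN1 holds 1. Over both strands, 28 of the 34 members (82.4%) had a GC box in this window, beside 42.6% of all 35116 windows. Members were counted by gene, with a match in any window sufficing, while the background counts single windows of genes at any expression level. A TATA box was in 5 members (14.7%) and 10.7% of all windows, the TEAD motif GGAATG in 5 members and 11.9%, the AP-1 motif TGANTCA in 1 member, POSTN, and 6.57%, and the E-box CACGTG in no member and 6.34%. THBS1, SPARC, THBS2, FBN1 and COL12A1 are the members with the TEAD motif, and they fell or rose without a common direction, with changes of -0.96, 0.44, 0.60, -0.24 and -0.82. The motifs were searched separately, so that a base may count for more than 1 motif. A match describes the letters of these windows and says nothing of a factor bound there.

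The wider matrix pathway was examined with 119 other genes, of which 117 were listed and 85 tested. Of these, 66 (77.6%) were called, beside 61% of all genes tested, with 44 lower (51.8%, beside 26.2%) and 22 higher (25.9%, beside 34.7%). At a log2 fold change of at least 1 as well, 14 were lower (16.5%, beside 6.29%) and 6 higher (7.06%, beside 5.41%). The counts in each class below stand against the same shares of all genes. Their median log2 fold change was -0.25, close to the -0.21 of the members. Both lists were chosen with earlier results of these data known. Among 21 receptors for matrix, 14 were lower and 1 higher, from ITGB5, an integrin subunit for vitronectin, at -3.57 to DDR1, a collagen receptor kinase, at 0.17 among those called. In collagen processing, with 7 lower and 6 higher of 15, the lysyl oxidase LOXL4 fell with LOXL2, by 1.33 from a mean of 367 to 146 FPKM, and P4HA2, a prolyl hydroxylase subunit, rose by 0.61.

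Other collagens and laminins moved in both directions, 5 lower and 6 higher of 11. LAMB3, which encodes a laminin beta chain, rose by 1.51, and the alpha chain LAMA2 by 0.62. Among 19 glycoproteins, elastic fibre genes and proteoglycans, 9 were lower and 5 higher. CCN2, the matricellular connective tissue growth factor, fell by 1.41 from 87.4 to 32.8 FPKM, and SMOC1, a calcium-binding protein related to SPARC, rose by 1.90. Of 19 proteases and inhibitors, 9 were lower and 4 higher, and the membrane-type protease MMP16 fell by 1.69.

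**Figure D4:**
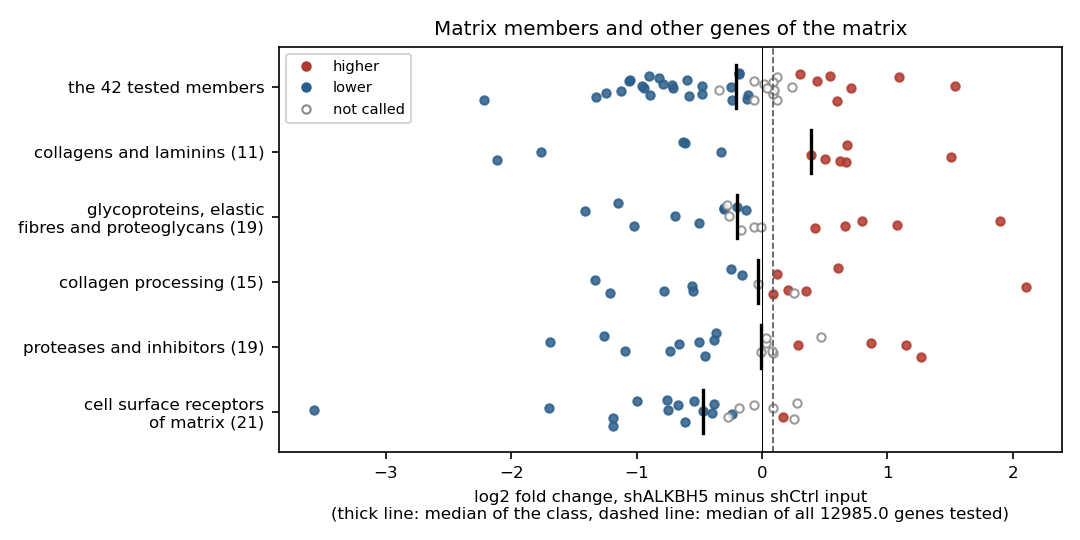
Log2 fold change between shALKBH5 and shCtrl input libraries for the 42 tested members and for 85 other tested genes of the matrix in 5 classes (number tested in parentheses), with each gene as a point, the class median as a thick line and the median of all 12985 tested genes, 0.09, as a dashed line. The receptors lie mostly to the left, down to ITGB5 at -3.57, and the median of the other collagens and laminins is at 0.39.

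The m6A peaks of the members were taken from the authors' lists, 1 per group, which hold for each peak its fold enrichment, IP over input, and no value per library, so nothing in this comparison has a replicate check. The shALKBH5 list held 144 peaks in 44 members and the shCtrl list 158 peaks in 46, with 43 members in both and 47 in either. By the authors' annotation, 45.8% (95% Wilson interval 37.9 to 54.0%, counting error only) of the shALKBH5 and 45.6% (38.0 to 53.3%) of the shCtrl peaks lay in the 3'UTR, beside 45.5% and 46.2% of the peaks of all genes. The 5'UTR held 18.1% and 19.6%. FN1 had no listed peak in either group despite its level of 18.1 to 27.5 FPKM, and COL3A1 had none. VCAN had the most, 17 and 16, at a level below that tested. FBLN1, BGN and COL1A2 had a peak in the shCtrl list alone and EFEMP1 in the shALKBH5 list alone. Of these, only the FBLN1 peak, with a fold of 2.81, passed the stricter peak limits described below. The BGN fold was 1.33, and the COL1A2 fold of 8.94 and EFEMP1 fold of 11.0 recurred in 1586 and 1112 peaks of their lists. FBLN1 and BGN were also lower in the shALKBH5 input, and whether m6A differed was not tested.

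Most of these peaks were common to both lists. Of the shALKBH5 peaks of members, 85.4% (78.7 to 90.3%) met a peak of the shCtrl list on the same strand (1 bp or more of overlap), and 79.7% (72.8 to 85.3%) of the shCtrl peaks overlapped a shALKBH5 peak. Over all genes the shares were 78.1% and 81.3%. Peaks that matched one to one numbered 97, and their fold enrichment had a median log2 ratio (shALKBH5 over shCtrl) of -0.03, beside -0.04 for 23026 matched peaks of all genes. Of the 97, 42 were higher and 55 lower in the shALKBH5 list, and the ratio passed 1 in 4 peaks upward and 7 downward (4.12% and 7.22%), beside 7.43% and 7.65% of all matched peaks. The matched peaks of the members thus had about the same median enrichment in both lists, as did those of all genes. Each fold is relative to the input of its own group, and peaks outside these matches are left out. Total m6A therefore cannot be read from these medians. By mass spectrometry, the study reports higher total m6A in the shALKBH5 group of A375 cells.

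The strongest enrichments lay in a few transcripts. In the 3'UTR of MMP14 (chromosome 14, 22847420 to 22847689 in the shALKBH5 list) the fold was 19.9 in shALKBH5 and 124 in shCtrl, where the peak ran on to 22849027. The other matched MMP14 peaks in the 3'UTR differed little, with folds of 6.09 and 5.41, and of 2.67 and 2.39. The 3'UTR of VCAN (chromosome 5, 83580805 to 83581374) had folds of 39.2 and 16.6, and the 5'UTR of COL5A1 (chromosome 9, 134641803 to 134642013) had 25.7 and 16.6. An exon peak of COL1A1 had 3.23 in shALKBH5 and 17.2 in shCtrl. VCAN and COL1A1 were near or below 0.5 FPKM, so their level in the input was low.

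Many folds recur as the same value, which sets how finely they can be read. In the shALKBH5 list 43.9% of all peaks and in the shCtrl list 41.1% had a fold that more than 100 peaks of the list shared, the most common being 7.35 in 2352 peaks and 7.66 in 2173 peaks. Among member peaks this held for 38 of 144 (26.4%) and for 58 of 158 (36.7%). The 5'UTR peak of LOXL2, at 14.7 in shALKBH5 and 7.66 in shCtrl, has such values on both sides, shared with 591 and 2173 peaks, and the 16.6 of VCAN and COL5A1 in shCtrl is shared with 392.

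In the 6 tested members that fell by at least 1, 5 of the 9 matched peaks had a higher and 4 a lower fold in the shALKBH5 list. LOXL2 had folds of 3.55 and 3.59 in the 3'UTR. TIMP3 had 1.89 and 2.02 in the 3'UTR and 3.24 and 3.18 in the 5'UTR. ADAMTS1, which rose, had 8.21 in shALKBH5 and 6.68 in shCtrl in the 3'UTR and 2.51 and 5.22 in the 5'UTR. The median log2 ratio was 0.03 over these 9 peaks, -0.05 over 48 peaks of the 23 called members with smaller changes, of which 18 were higher and 30 lower, and 0.01 over 28 peaks of the 11 members not called. It was -0.31 over 3 peaks of the 2 members that were higher by at least 1, and -0.84 over 9 peaks of the 7 members below the level tested, of which 3 were higher and 6 lower. A further table of the authors compares the peaks of the groups, and it lists 32 peaks of 23 members among 6513 peaks, of which 62.5% lie in the 3'UTR, beside 55.6% of all its peaks.

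**Figure D5:**
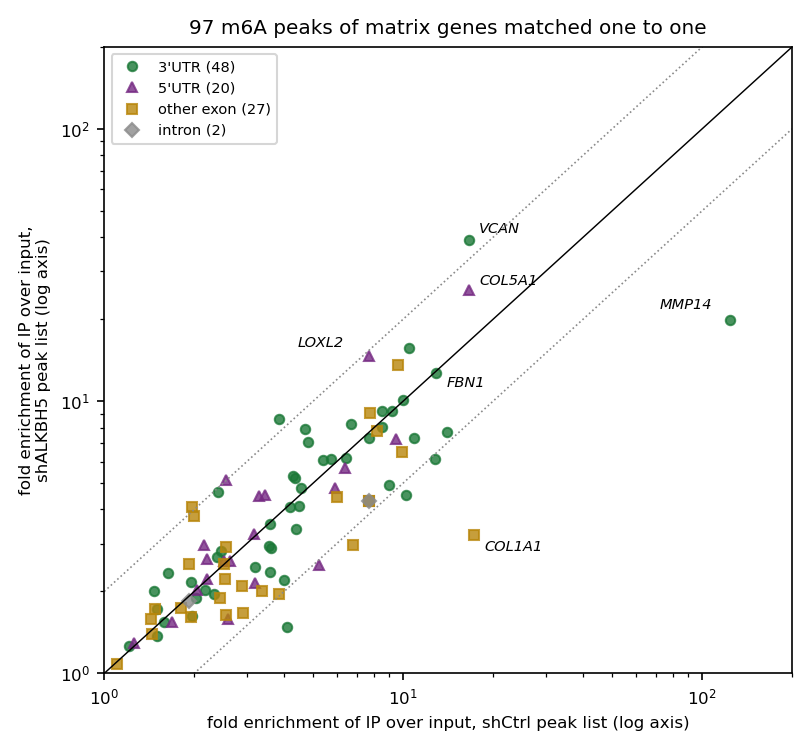
Fold enrichment of IP over input for the 97 m6A peaks of matrix genes that matched one to one, in the shCtrl list (x, log axis) and the shALKBH5 list (y, log axis), with 1 list per group, symbols for the region in the shALKBH5 list, the line of equal folds and dotted lines at a log2 ratio of 1 in either direction. Most peaks lie near the line of equal folds, with MMP14 at 124 and 19.9 and COL1A1 at 17.2 and 3.23 farthest below it.

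Peaks also covered the start of 12 members, at 14 of the 37 RefSeq starts of the list. Such peaks can hold m6A or the related m6Am next to the cap, which the antibody is known to bind as well, and the first base was A at 5 of the 14, beside 44.4% of all windows. This base is that of the RefSeq start, which can differ from the gene start in the files, as in LAMA4 and FBN1. The COL18A1, TIMP1 and SPARC starts lay in a peak of 1 list alone, and that of TIMP1 had a fold of 1.29. The core of the m6A consensus, GGAC, was within the first 50 bases of 5 of the 14 starts, in 4 genes, beside 18.9% of all windows. Runs of 30 bases around it are printed for these 4 genes on the strand of the gene, with GGAC in capitals and with the positions counted from 1 at the RefSeq start.

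LAMA4, positions 2 to 31: agaaggaagccaGGACagcgcagtccccag
LAMB2, positions 2 to 31: ctcaaagtcgctGGACtctaagctgtcgga
COL4A2, positions 10 to 39: tgcagtgcgccgGGACaccagggctccgcg
COL5A1, positions 20 to 49: gcggctggcgcaGGACctcactcgagcgga

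The peak over the start had folds of 5.68 and 6.38 in LAMA4, of 2.63 and 2.20 in LAMB2, of 2.95 and 2.15 in COL4A2, and of 25.7 and 16.6 in COL5A1, each as shALKBH5 and shCtrl. A peak spans far more than these bases, and the files do not say which base carries the mark.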

How the data were processed

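RNA-seq of 6 input libraries and MeRIP-seq peaks of A375 cells with shALKBH5 or shCtrl were used, with groups taken from the sample labels. The authors deposited expression as FPKM per input library, and for each group 1 peak list in which every peak has a fold enrichment (a ratio of IP to input) and a score, the log10 p and log10 FDR of their peak caller. The study's RNA-seq methods name an R package that models read counts for quantifying transcripts and for its own comparison. The aligner, the step from reads to FPKM, the peak caller and whether replicates were pooled for the peaks are not given in the sources used here. The submitters' processing notes name the mouse build mm10, which the files do not follow. Of 21699 genes compared, 97.5% had an end within 1000 bp of their RefSeq place in GRCh38.p14. The same files hold the authors' fold changes, p-values and FDR of expression and of peaks between groups, which were not used. FPKM showed no steps of whole reads, so no count test was run.

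Expression was tested with limma 3.58.1 (lmFit, eBayes with trend) in R 4.3.3 as a two-sided test of log2(FPKM + 0.1) in the 12985 genes whose mean reached 0.5 FPKM, with Benjamini-Hochberg adjustment over all of them and a threshold of 0.05. Fold changes on this scale understate changes of low genes. The fit was tested on simulated data. Libraries of 1 group correlated at r = 0.981 to 0.984 over genes. Peaks were overlapped on the same strand with bedtools 2.31.1, and starts were counted from 1. Tables and figures were made in Python 3.11.15 with pandas 2.3.3, scipy 1.17.1 and matplotlib 3.10.9. Promoters came from RefSeq. Motifs inside peaks were not analysed here.

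The members, the list of other matrix genes, the markers and the tests were chosen with earlier results of these data known. Values per library are given for members with a called log2 fold change of at least 1 and at least 1 FPKM in the higher group, for the 3 most abundant, and for the next largest called changes up to 12 genes, and further members were added for their role. In each class of other matrix genes the largest called change in each direction at 1 FPKM or more is named, and LOXL4 is that of its class. COL4A5, COL11A2, COL27A1 and LAMA2 were added after their values were seen. Some genes that this rule names are counted in their class and not reported here. Peaks are named for the highest folds and the largest differences, and those of LOXL2, TIMP3 and ADAMTS1 were added because of their expression. The results were recomputed with a pseudocount of 1 or 0.01, with the filter removed or set to 1 FPKM, after median ratio rescaling, with a replicate block, with eBayes but no trend, and without each library in turn. Peaks were also limited to a fold of 2 or more with an FDR of 0.01 or less, or matched by a reciprocal overlap of 50%. Rescaling to equal FPKM sums was added after the data were seen.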

Additional observations from a re-analysis of the deposited data

How the results depend on the processing

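Of the 31 called members, 26 kept their direction and call under each of the 14 alternatives that tested them (COL7A1 and EFEMP1 fall below a filter at 1 FPKM), and COL6A3, FBN1, LAMB2, MMP2 and SERPINH1 lost the call under at least 1. The COL4A1, COL5A2, MMP1 and PLOD3 changes were called under at least 1 alternative. The median log2 fold change of tested members was -0.25 with equal FPKM sums, -0.24 with a filter at 1 FPKM, -0.31 after median ratio rescaling and -0.18 without a filter. Median ratio rescaling moved the median of all tested genes by -0.08. With a pseudocount of 1, 5 members passed a log2 fold change of 1, 0 of them higher, and 12 other matrix genes did, since a larger pseudocount shrinks changes of low genes. Only uncalled changes reversed, COL9A3 to -0.02 with equal sums and -0.06 after median ratio rescaling, and MMP15 to 0.00 and -0.04, and to -0.01 without shALKBH5 replicate 1 (0.06 at most with another library left out). With each library left out, 26 to 30 members were called, 19 to 22 of them lower, 7 to 9 passed a log2 fold change of 1, and the median ran from -0.23 to -0.18. Between 1 and 2 members passed it upward, since LUM fell below 1 without shALKBH5 replicate 1. Stricter peaks left 94 member peaks in the shALKBH5 list and a median log2 ratio of -0.01. A reciprocal overlap of 50% gave shared shares of 61.1% and 55.7% and a median of -0.02. Replicate numbers did not pair the libraries, with correlations of deviations of 0.0181, -0.0462 and 0.0591, and with the replicate block 27 members were called, 20 lower and 7 higher. The cause of the other differences was not tested, and the peak lists carry no replicate error.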
